A study of Mus musculus with 12 samples.

Results

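The mitosis and cell cycle genes described here are 42 of the 46603 genes in the count tables. They were chosen by symbol as G2/M, spindle and kinetochore genes, with cyclins and kinases of G1 and of the start of S phase. All 42 matched 1 Ensembl gene each, and all 42 passed the filter on low counts at both stages. They were measured by RNA-seq of microdissected mouse neocortex at embryonic day 12.5 (E12.5) and postnatal day 5 (P5), in Chd8+/+ and Chd8+/- mice on a C57BL/6J background, with 3 libraries per group and 12 in all. The Chd8+/- mice carried 1 allele from which exon 3 had been deleted in all tissues with a ubiquitous β-actinCre, which was no longer present in the breeding stock. Both hemispheres were taken at E12.5 and a single hemisphere at P5, and the counts of the stages came as separate tables, so that age, dissection and table cannot be told apart in any comparison of stages.

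Cells divide under cyclins, which rise and fall through the cell cycle and switch on cyclin-dependent kinases. D-type cyclins with Cdk4 and Cdk6 act in G1, E-type cyclins with Cdk2 at the start of DNA synthesis, and cyclins A and B with Cdk1 in G2 and mitosis, when spindle motors, kinetochores and the spindle checkpoint separate the chromosomes. In the developing neocortex radial glia divide at the ventricular surface and give rise to neurons, which leave the cycle.

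Library totals lay between 38774591 and 54695236 counts. Levels are given as CPM, which are counts divided by the library total in units of 1e+06 and scaled with TMM factors over the 12 libraries. Genes are compared with each other only as CPM per kb of exon. Chd8, the disrupted gene, had 240.1, 232 and 235 CPM in the E12.5 Chd8+/+ libraries and 164, 170.1 and 163 CPM in the Chd8+/- libraries. At P5 it had 148, 146 and 144 CPM against 95.5, 99 and 92.9 CPM. The genotypes did not overlap at either stage, although the counts also cover exons that were not deleted. Its adjusted p was 0.00562 at E12.5 (between 0.122 and 0.141 without Chd8+/+ replicate 3, Chd8+/- replicate 1 or Chd8+/- replicate 3) and 7.2e-05 at P5. The Chd8+/- level was lower by 0.51 ± 0.039 (SE) at E12.5 and 0.61 ± 0.034 at P5 on the log2 scale. Of 60 markers of 10 cell types none was at 0 counts in any group. Xist, transcribed from the inactive X, was at least 834 CPM in 1 library of each group and at most 2.26 CPM in the others.

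Many genes of G2 and mitosis carry a CCAAT box, bound by NF-Y, and a cell cycle genes homology region (CHR), bound by the MuvB complex, close to their start. The RefSeq promoter windows (GRCm38.p6, 250 bases before to 50 after each start) held 33 of the 42 members in 35 windows. Incenp, Ccnd1, Aurkb, Ccnd2, Kif20a, Ccna2, Ccne2, Tpx2 and Cdc25c had no window there. CCAAT was searched on both strands, and the CHR as TTTGAA or TTCGAA on both strands, the latter being its own reverse complement. CCAAT was in 74.3% of the windows of members and 37.4% of all 32851 windows. A CHR was in 74.3% against 19.2%, and both were in 65.7% against 7.52%. The median position of the matches, counted from the start site, was -71.0 for CCAAT and -5.0 for the CHR. These matches are descriptions of sequence and not measured sites.

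Ccnb1, Cdk2 and Cenpe held CCAAT alone, and Ndc80, Kif2c and Anln a CHR alone. The 6 members with neither were Birc5, Nusap1, Nuf2, Cdk4, Cdk6 and Ccne1. Of these, Ccne1, Cdk6 and Cdk4 had log2 fold changes between stages of -2.02, -2.03 and -2.87 in Chd8+/+, and Nusap1, Birc5 and Nuf2 of -4.14, -4.09 and -3.73. Cdc25b held both motifs and had the smallest fall of the members (-2.01). No relation between the motifs and the fall was tested.

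The 6 members with both motifs in a window and the largest falls from E12.5 to P5 are shown from 200 bases before to 30 after the start, with CCAAT and CHR matches on either strand in capitals. They lie at chr2:127831830-127832059 (Bub1, minus strand), chr3:27153825-27154054 (Ect2, minus), chr11:99024160-99024389 (Top2a, minus), chr2:164769729-164769958 (Ube2c, plus), chr7:135716350-135716579 (Mki67, minus) and chr1:189688057-189688286 (Cenpf, minus). Cdk4 at chr10:127063335-127063564 (plus) stands beside them as a member with neither motif. It was chosen after its values were seen.
Bub1: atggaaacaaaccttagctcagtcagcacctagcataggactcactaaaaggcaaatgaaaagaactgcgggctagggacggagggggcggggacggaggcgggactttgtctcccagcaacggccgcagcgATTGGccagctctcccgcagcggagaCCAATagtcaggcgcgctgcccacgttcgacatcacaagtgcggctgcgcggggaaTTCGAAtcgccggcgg
Ect2: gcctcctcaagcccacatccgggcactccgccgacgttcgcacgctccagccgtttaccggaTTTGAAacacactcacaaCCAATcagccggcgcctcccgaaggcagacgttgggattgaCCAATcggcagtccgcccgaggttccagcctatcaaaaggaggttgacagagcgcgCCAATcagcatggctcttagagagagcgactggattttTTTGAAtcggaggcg
Top2a: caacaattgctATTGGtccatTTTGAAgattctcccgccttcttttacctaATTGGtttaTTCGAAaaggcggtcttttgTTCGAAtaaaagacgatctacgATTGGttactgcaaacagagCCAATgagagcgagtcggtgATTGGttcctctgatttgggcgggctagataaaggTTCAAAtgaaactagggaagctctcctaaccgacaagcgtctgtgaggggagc
Ube2c: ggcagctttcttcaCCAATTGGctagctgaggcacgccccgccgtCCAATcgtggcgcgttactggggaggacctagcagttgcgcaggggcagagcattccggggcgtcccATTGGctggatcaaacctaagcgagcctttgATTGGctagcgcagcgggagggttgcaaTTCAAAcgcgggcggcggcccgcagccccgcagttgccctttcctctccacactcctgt
Mki67: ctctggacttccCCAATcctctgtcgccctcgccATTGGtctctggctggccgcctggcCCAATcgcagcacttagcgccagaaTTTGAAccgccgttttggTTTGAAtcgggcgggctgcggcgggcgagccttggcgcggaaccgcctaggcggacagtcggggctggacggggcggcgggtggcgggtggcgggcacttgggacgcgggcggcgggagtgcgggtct
Cenpf: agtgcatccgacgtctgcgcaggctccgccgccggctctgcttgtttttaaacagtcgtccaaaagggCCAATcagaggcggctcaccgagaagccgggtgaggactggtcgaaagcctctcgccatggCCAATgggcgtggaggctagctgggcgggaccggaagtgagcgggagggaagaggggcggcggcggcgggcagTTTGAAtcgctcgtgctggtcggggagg
Cdk4: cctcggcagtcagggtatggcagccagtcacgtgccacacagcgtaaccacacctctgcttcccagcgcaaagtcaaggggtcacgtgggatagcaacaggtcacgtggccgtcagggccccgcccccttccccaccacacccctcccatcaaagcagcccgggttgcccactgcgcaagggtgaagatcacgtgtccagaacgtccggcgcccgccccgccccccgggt

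In Bub1, Ect2 and Cenpf a CHR begins just after the start site, at positions 15, 16 and 3, and in Ube2c a CCAAT match overlaps another on the opposite strand. Top2a has 4 CHR matches in its 300-base window, Ect2 and Mki67 have 2 each, and Bub1, Ube2c and Cenpf have 1 each.

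Each of the 42 genes was expressed at E12.5 and was lower at P5, in both genotypes. In Chd8+/+ neocortex the members kept between 3.41% (Bub1) and 24.8% (Cdc25b) of their E12.5 level. In Chd8+/- they kept between 3.44% (Bub1) and 30.4% (Ccne1). Summed per kb over the members, the level was 1971, 1989 and 2033 CPM per kb in the E12.5 Chd8+/+ libraries and 1975, 1960.4 and 2057 CPM per kb in the Chd8+/- libraries. At P5 it was 154, 152 and 147 CPM per kb in Chd8+/+ and 151, 158 and 145 CPM per kb in Chd8+/-. The stages lay far apart and the genotypes overlapped within each stage. The P5 level was 7.55% of the E12.5 level in Chd8+/+ and 7.58% in Chd8+/-. In bulk tissue, fewer dividing cells and less RNA per cell cannot be told apart.

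All 42 members passed the test as lower at P5 in each genotype (edgeR quasi-likelihood test, adjusted p of at most 7.49e-12 in Chd8+/+ and 1.64e-11 in Chd8+/-). Of all genes tested, 41.7% were called lower in Chd8+/+ and 41.6% in Chd8+/-, so the count is best read with its size. The median log2 fold change of the members was -4.06 in Chd8+/+ and -4.12 in Chd8+/-, against -0.018 and -0.0046 over all 19676 genes tested. A called fall of 3 or more on the log2 scale was found for 37 of 42 members in Chd8+/+ (88.1%) and 36 in Chd8+/- (85.7%). The same limit was passed by 2.98% and 3.16% of all genes.

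**Figure D1:**
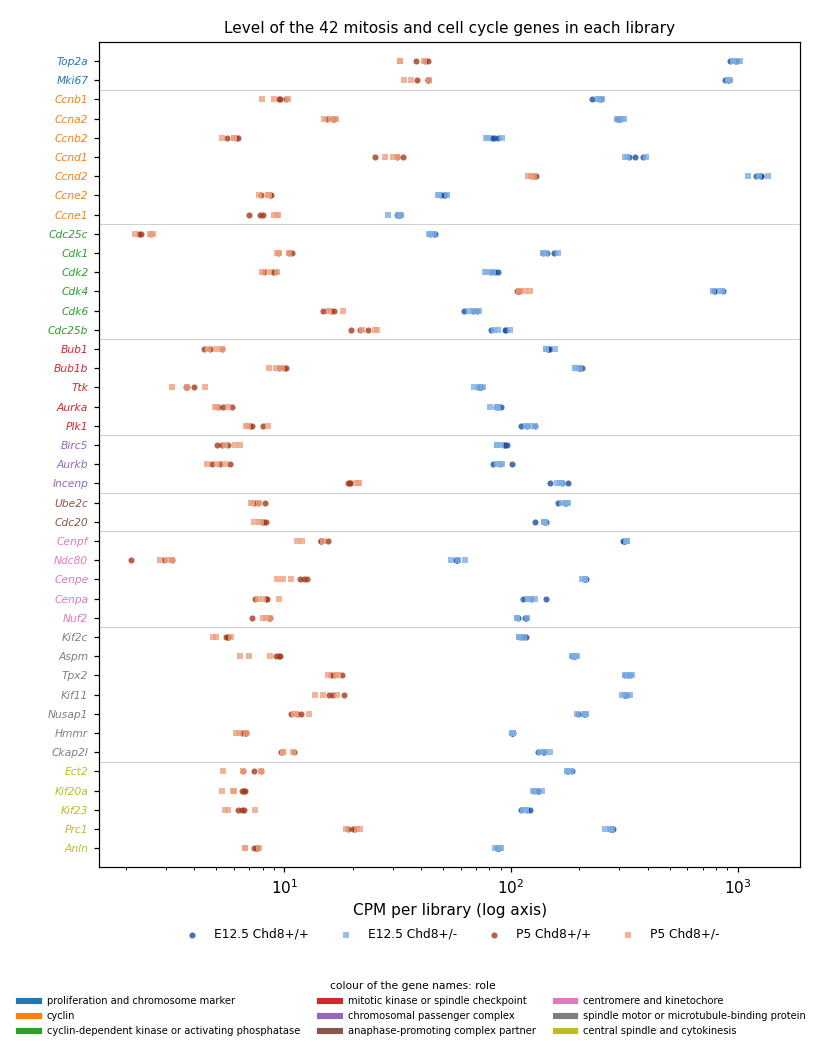
CPM of each of the 42 genes (rows, grouped by role) in each of the 12 libraries on a log axis; circles are Chd8+/+ and squares Chd8+/-, blue is E12.5 and red P5. For every gene the 6 E12.5 libraries lie to the right of the 6 P5 libraries, and within a stage the genotypes lie on top of each other for most genes.

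The proliferation markers stood among the largest falls. Mki67, which encodes the Ki-67 protein that coats mitotic chromosomes, had 902, 879 and 914 CPM in the E12.5 Chd8+/+ libraries and 909, 906 and 927 CPM in Chd8+/-. Its P5 levels were 43.1, 42.8 and 38.6 CPM in Chd8+/+ and 33.6, 43.5 and 36.3 CPM in Chd8+/-. It fell by 4.38 ± 0.088 (SE) on the log2 scale in Chd8+/+. Top2a, the topoisomerase that untangles sister chromatids, had 928, 977 and 988 CPM in E12.5 Chd8+/+ and 949, 958 and 1019.6 CPM in E12.5 Chd8+/-. Its P5 levels were 42.8, 41.9 and 38.1 CPM in Chd8+/+ and 32.2, 41.1 and 32.5 CPM in Chd8+/-, and it fell by 4.51 ± 0.094 on the log2 scale in Chd8+/+. In both genes the P5 Chd8+/- replicates 1 and 3 were the lowest libraries. Chd8+/- replicate 2 was the highest P5 library for Mki67 and lay among the Chd8+/+ libraries for Top2a.

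The mitotic engine fell with them. Cdk1, the kinase that drives entry into mitosis, had 138, 154 and 144 CPM in E12.5 Chd8+/+ and 143, 138 and 161 CPM in E12.5 Chd8+/-. At P5 its levels were 10.8, 10.5 and 9.39 CPM in Chd8+/+ and 9.47, 10.5 and 9.31 CPM in Chd8+/-, and it kept 7.30% of its level in Chd8+/+. Ccnb1, its cyclin B partner, had 227, 244 and 248 CPM in E12.5 Chd8+/+ and 242, 241 and 251 CPM in E12.5 Chd8+/-. In P5 libraries it had 9.49, 10.2 and 9.59 CPM in Chd8+/+ and 9.02, 10.4 and 7.94 CPM in Chd8+/-, and kept 4.22%. For both genes the genotypes overlapped at each stage.

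The largest falls in Chd8+/+ were those of Bub1 (-4.87 ± 0.068), Ect2 (-4.57 ± 0.094), Ccnb1 (-4.57 ± 0.073) and Top2a (-4.51 ± 0.094) as log2 fold changes. Bub1 is a kinase of the spindle checkpoint. It had 146, 146 and 148 CPM in E12.5 Chd8+/+ and 143, 143 and 156 CPM in E12.5 Chd8+/-. Its P5 values were 5.28, 4.70 and 4.43 CPM in Chd8+/+ and 4.59, 5.30 and 5.01 CPM in Chd8+/-. Ect2, the exchange factor that activates RhoA at the cleavage furrow, had 178, 176 and 185 CPM in E12.5 Chd8+/+ and 176, 179 and 183 CPM in E12.5 Chd8+/-. P5 libraries held 7.90, 7.31 and 6.53 CPM in Chd8+/+ and 5.36, 7.87 and 6.59 CPM in Chd8+/-. Among the mitotic kinases and checkpoint genes as a group (Bub1, Bub1b, Ttk, Aurka, Plk1) the log2 fold changes in Chd8+/+ ran from -4.87 to -3.95. Those of the kinetochore group (Cenpa, Cenpe, Cenpf, Ndc80, Nuf2) ran from -4.36 to -3.73, and those of the spindle group (Kif11, Kif2c, Tpx2, Nusap1, Aspm, Ckap2l, Hmmr) from -4.28 to -3.70.

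The central spindle and cytokinesis genes (Kif23, Kif20a, Prc1, Ect2, Anln) ran from -4.57 to -3.49. In the chromosomal passenger complex, which corrects faulty attachments to the spindle, Aurkb and its partner Birc5 fell by 4.06 and 4.09 on the log2 scale, and the scaffold Incenp by 3.04. The partners of the anaphase-promoting complex, Cdc20 and Ube2c, fell by 4.02 and 4.39. Cdc25c, a phosphatase that activates Cdk1, fell by 4.18.

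Genes of G1 and of the start of S phase kept more of their level. Ccnd1, Ccnd2, Ccne1, Ccne2, Cdk2, Cdk4 and Cdk6 had log2 fold changes between -3.51 and -2.02 in Chd8+/+, all above the median of the members. No test was made of this grouping. The 4 smallest falls in Chd8+/+ were those of Cdc25b (-2.01 ± 0.082), Ccne1 (-2.02 ± 0.071), Cdk6 (-2.03 ± 0.074) and Ccne2 (-2.52 ± 0.068) as log2 fold changes. Cdc25b, a phosphatase that starts Cdk1 activation and is itself no G1 gene, had 95.1, 81.2 and 93.9 CPM in E12.5 Chd8+/+ and 84.4, 98.9 and 87.2 CPM in E12.5 Chd8+/-. Its P5 values were 21.6, 19.6 and 23.3 CPM in Chd8+/+ and 25.6, 25 and 21.9 CPM in Chd8+/-. The cyclin E genes encode partners of Cdk2. Ccne1 had 31.3, 32.2 and 32.1 CPM in E12.5 Chd8+/+ and 31.6, 28.6 and 32.6 CPM in E12.5 Chd8+/-, and at P5 7.77, 8.02 and 6.99 CPM in Chd8+/+ and 9.38, 9.0 and 9.31 CPM in Chd8+/-. Ccne2 had 48.9, 51.0 and 50.4 CPM in E12.5 Chd8+/+ and 47.5, 48.1 and 52.3 CPM in E12.5 Chd8+/-, and at P5 8.76, 8.64 and 7.91 CPM in Chd8+/+ and 7.68, 8.52 and 8.47 CPM in Chd8+/-. At P5 the Ccne1 genotypes did not overlap and those of Ccne2 did.

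The D-type cyclins and their kinases kept between 8.77% and 24.5% in Chd8+/+. Ccnd2, a D cyclin of dividing cortical progenitors, had 1201, 1265 and 1261 CPM in E12.5 Chd8+/+ and 1246, 1110.1 and 1365 CPM in E12.5 Chd8+/-. Its P5 libraries held 126, 129 and 122 CPM in Chd8+/+ and 119, 123 and 126 CPM in Chd8+/-, and fell by 3.25 on the log2 scale in Chd8+/+. Ccnd1 had 351, 332 and 381 CPM in E12.5 Chd8+/+ and 319, 392 and 326 CPM in E12.5 Chd8+/-. At P5 it had 33.4, 31.5 and 25 CPM in Chd8+/+ and 30.2, 31.5 and 27.9 CPM in Chd8+/-, and fell by 3.51. Neither gene separated the genotypes at either stage.

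Cdk4, the main kinase partner of the D cyclins, had 787, 864 and 796 CPM in E12.5 Chd8+/+ and 833, 774 and 848 CPM in E12.5 Chd8+/-. At P5 it had 108, 108 and 106 CPM in Chd8+/+ and 121, 115 and 108 CPM in Chd8+/-, and fell by 2.87 on the log2 scale in Chd8+/+. Cdk6 had 67.9, 62.0 and 70.9 CPM in E12.5 Chd8+/+ and 67.8, 64.9 and 72.1 CPM in E12.5 Chd8+/-. At P5 it had 16, 14.8 and 16.6 CPM in Chd8+/+ and 15.7, 18.2 and 15.7 CPM in Chd8+/-, and kept 24.5% in Chd8+/+. Cdk2 fell by 3.23 on the log2 scale. Of the exon bases of Cdk4, 18.6% are shared with another gene on the opposite strand. The share is 22.8% for Ube2c, 21.3% for Ccnd1, 17.4% for Ccne2, 12.5% for Ccna2 and 7.87% for Ccnd2. The counting command recorded for P5 did not use strand, and the recorded command for E12.5 is not given in the sources used here.

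Per kb of exon, the mean level in E12.5 Chd8+/+ was highest for Cdk4 (251 CPM per kb), Ccnd2 (132 CPM per kb) and Top2a (107 CPM per kb), and lowest for Cdk6 (4.78 CPM per kb). At P5 Cdk4 (33 CPM per kb) and Ccnd2 (13.4 CPM per kb) were still the highest, followed by Ccnd1 (7.81 CPM per kb), and Ttk was the lowest (0.771 CPM per kb). Top2a was then at 4.54 CPM per kb.

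**Figure D2:**
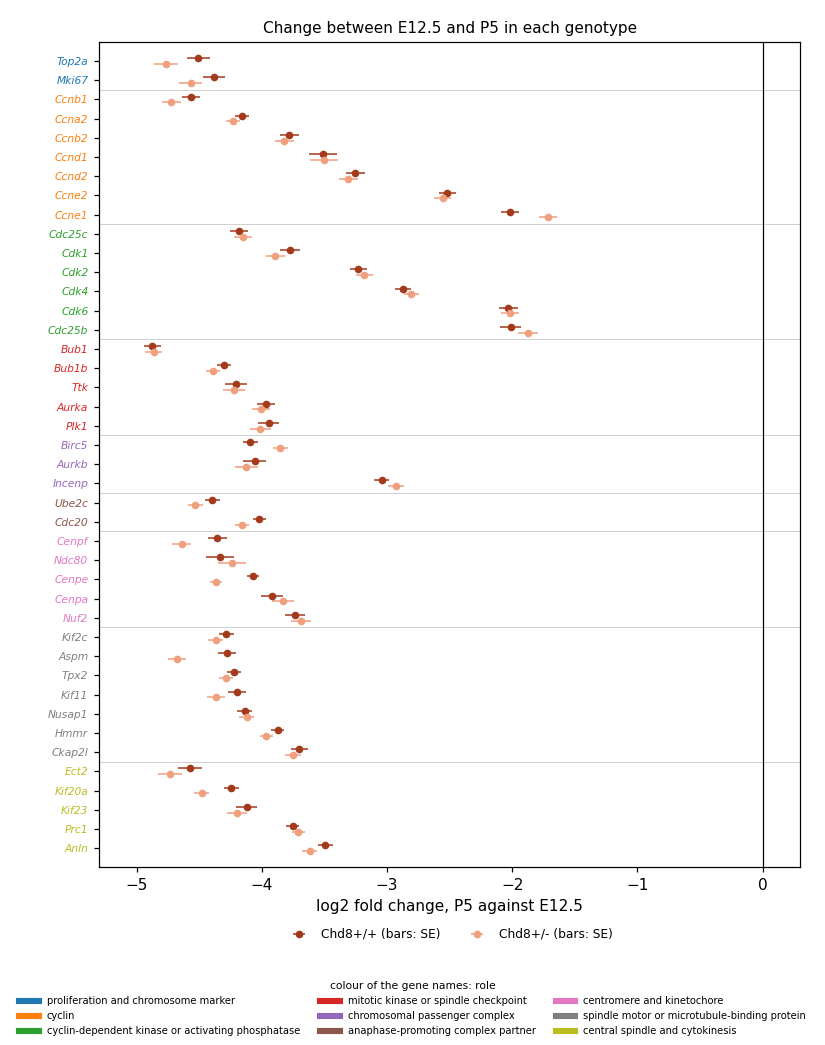
log2 fold change from E12.5 to P5 of each of the 42 genes with its SE, in Chd8+/+ (dark) and Chd8+/- (light), grouped by role. All points lie between -4.87 and -1.72, with Bub1 at the low end in Chd8+/+ and Cdc25b, Ccne1, Cdk6 and Ccne2 nearest to 0.

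Related lists showed how far the fall extended. Of 56 other mitosis genes tested, 55 fell and 1 rose in Chd8+/+. Their median was -3.80 on the log2 scale, and 44 fell by 3 or more. The smallest p-values belonged to Kif15, a spindle motor (-4.67), the condensin subunits Ncapg (-4.70) and Ncaph (-3.68), and Pclaf, a partner of the replication clamp PCNA (-4.74). Zwint, whose product binds the kinetochore, was the gene that rose, by 0.93 on the log2 scale in Chd8+/+, from a mean of 281 to 517 CPM. It was named after its values were seen.

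All 21 transcription regulators of cell cycle genes fell, with a median of -1.87. Tfdp2, an E2F partner, fell by 2.64, E2f6 by 1.94, Foxm1, an activator of G2 genes, by 3.71 and Lin9, a MuvB subunit, by 2.40 on the log2 scale in Chd8+/+. Of the 3 NF-Y subunits, Nfya fell by 0.89, Nfyb by 1.07 and Nfyc by 1.00.

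Cell cycle inhibitors were mixed. Of 16 tested, 11 fell and 5 rose in each genotype. The smallest p-values among them were those of the antiproliferative gene Btg2 (-3.06), the Cdk1-inhibiting kinase Wee1 (-3.44), the retinoblastoma relative Rbl1 (-3.69) and Gadd45g (-2.14). The 5 that rose in Chd8+/+ were Cdkn2b (3.04, from a mean of 0.0562 to 0.469 CPM), Cdkn2d (0.91), Cdkn1a (0.84), Rbl2 (0.39) and Fzr1 (0.14) as log2 fold changes. Cdkn2a did not pass the filter.

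Markers of cortical progenitors fell in part. The summed level of 8 progenitor markers was between 748 and 778 CPM per kb at E12.5 and between 378 and 466 CPM per kb at P5. In Chd8+/+, 7 of the 8 fell and 1 rose (median -2.95), among them the intermediate progenitor factor Eomes from a mean of 155 to 4.21 CPM and the radial glial factor Pax6 from 154 to 13.3 CPM. Fabp7, expressed by radial glia and astrocytes, rose. All 8 neuronal markers rose, and their summed level went from between 778 and 956 to between 1858 and 2047 CPM per kb. The summed level of 8 markers of ganglionic eminence and interneurons was between 158 and 190.4 CPM per kb at E12.5 and between 54.3 and 66.1 at P5, and that of 6 erythroid markers was between 3217 and 4493 at E12.5 and between 109.8 and 140.5 at P5. In Chd8+/+ the mean summed level rose from 22.7 to 104 CPM per kb for oligodendrocyte precursor markers and from 18.3 to 182 for astrocyte markers. It also rose for markers of microglia (9.73 to 36.2), endothelium (40.2 to 65.1) and choroid plexus (51.1 to 380.2). That of meningeal fibroblast markers fell from 102 to 44.9. The part of all these cells in the members' fall, or in the level left at P5, was not tested.

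The genotype comparison asks whether loss of 1 Chd8 allele changed the expression of these genes at either stage. At E12.5 no member was called by edgeR, DESeq2 or limma-voom. Chd8 was the gene called by edgeR, 0.00553% of those tested. The members' log2 fold changes, Chd8+/- against Chd8+/+, lay between -0.099 and 0.043 with a median of 0.0030, and 18 were below 0. Their SEs lay between 0.0385 and 0.0854. For all 18081 genes tested the median was 0.00058.

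The member with an unadjusted p under 0.05 at E12.5 was Birc5, a subunit of the passenger complex also known as survivin, or 2.38% of the members against 5.15% of all genes. It had 95.5, 93.2 and 93.5 CPM in Chd8+/+ and 86.5, 86.6 and 89.9 CPM in Chd8+/-. The genotypes did not overlap, which held for 11.3% of all genes. Its log2 fold change was -0.099 ± 0.041, with an unadjusted p of 0.038 and an adjusted p of 0.942 (edgeR).

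At P5 the members spread more, and again none was called by the edgeR test. Their log2 fold changes lay between -0.37 and 0.28 with a median of -0.040, against 0.0017 over all 18666 genes tested, and 28 of 42 were below 0, as were 9254 of the 18666. Chd8 was again the gene called (0.00536% of those tested). An unadjusted p under 0.05 was found for 7 members (16.7%) and 17.8% of all genes, and groups that did not overlap for 6 members (14.3%) and 23.2% of all genes. The members thus stood out from the genome by neither count. DESeq2, which called 5.22% of the 12467 genes it tested, called 1 of the 39 members that had an adjusted p, Aspm (adjusted p = 0.0471).

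**Figure D3:**
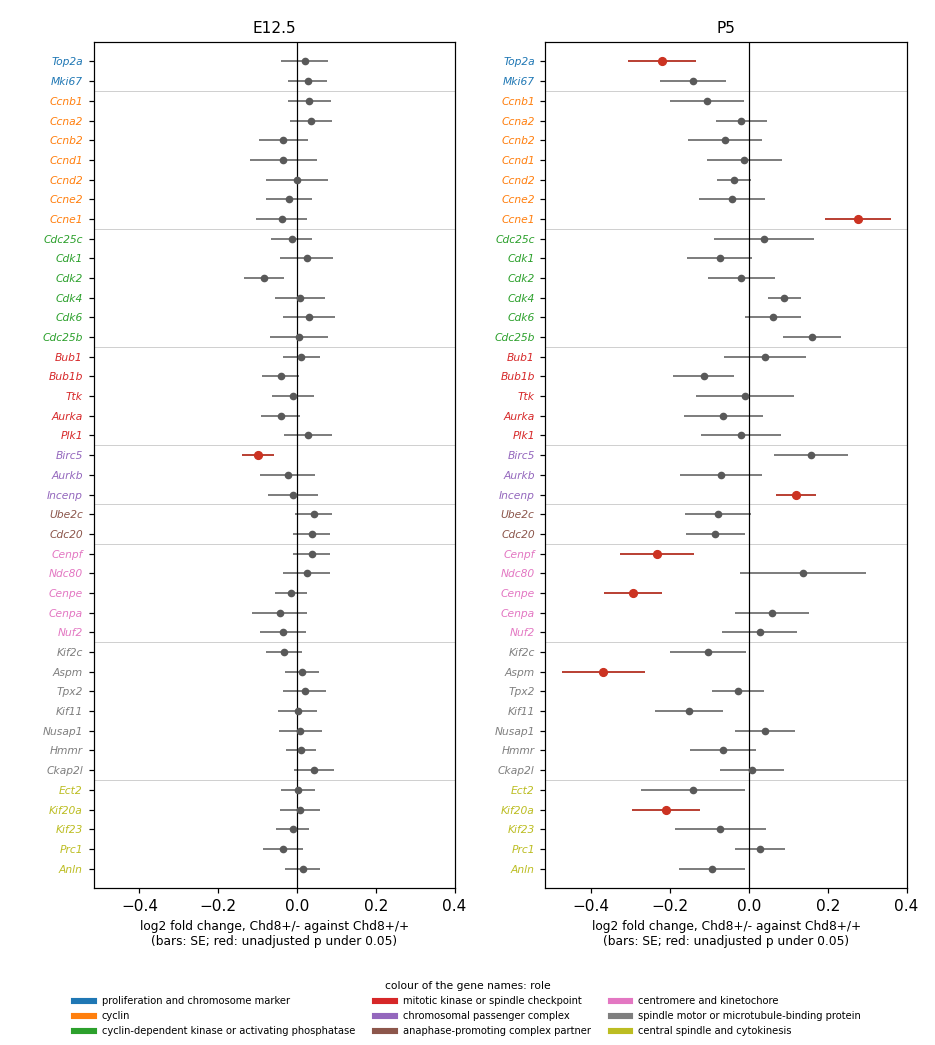
log2 fold change, Chd8+/- against Chd8+/+, of each of the 42 genes with its SE at E12.5 (left) and P5 (right), on the same axis. Red marks an unadjusted p under 0.05, which Birc5 has at E12.5 and 7 genes have at P5. The P5 values spread between -0.37 and 0.28 and the E12.5 values between -0.099 and 0.043.

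Of those 7 members, 5 were lower and 2 were higher in Chd8+/-. With gene length offsets, 6 of the 42 members (14.3%) had an unadjusted p under 0.05, against 15.3% of all genes (edgeR). Of these, Cenpe, Aspm and Kif20a were lower, and Ccne1, Incenp and Cdc25b higher, the last not among the 7. Aspm, a spindle pole protein of dividing radial glia whose human gene is mutated in primary microcephaly, had 9.47, 9.52 and 9.20 CPM in Chd8+/+ and 6.94, 8.67 and 6.34 CPM in Chd8+/-. The genotypes did not overlap, and Chd8+/- replicate 2 was the nearest to Chd8+/+. Its log2 fold change was -0.37 ± 0.10, with an unadjusted p of 0.00522 and an adjusted p of 0.133 (edgeR). Without Chd8+/- replicate 2 it was -0.50 with an adjusted p of 0.0302, in a fit that called 327 of 19044 genes. With each P5 library left out in turn, it ran from -0.50 to -0.28. The adjusted p then ran from 0.0302 to 0.391 (edgeR).

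Cenpe, a kinetochore motor that carries chromosomes to the spindle equator, had 12.6, 11.7 and 12.2 CPM in Chd8+/+ and 9.31, 10.7 and 9.81 CPM in Chd8+/-. The groups did not overlap. It had the smallest p of the members, with a log2 fold change of -0.29 ± 0.074, an unadjusted p of 0.00232 and an adjusted p of 0.116 (edgeR). Cenpf, a large kinetochore protein, had 14.5, 15.5 and 14.5 CPM in Chd8+/+ and 11.3, 14.8 and 12 CPM in Chd8+/-, with overlap through replicate 2. Its log2 fold change was -0.23 ± 0.094 (adjusted p = 0.237).

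Top2a, whose P5 levels are given above, had a log2 fold change of -0.22 ± 0.086 (adjusted p = 0.223). Leaving out Chd8+/- replicate 2 brought it to -0.34 with an adjusted p of 0.0373. With each P5 library left out in turn, it ran from -0.34 to -0.16. The adjusted p then ran from 0.0373 to 0.517 (edgeR). Kif20a, a motor of the central spindle, had 6.66, 6.67 and 6.51 CPM in Chd8+/+ and 5.98, 5.93 and 5.31 CPM in Chd8+/-, with no overlap. Its log2 fold change was -0.21 ± 0.086 (adjusted p = 0.242). Another gene on the opposite strand shares 33.2% of its exon bases.

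Ccne1 was higher in all 3 P5 Chd8+/- libraries than in any Chd8+/+ library, with a log2 fold change of 0.28 ± 0.083 and an adjusted p of 0.149 (edgeR). Incenp had 19.5, 19.1 and 19.4 CPM in Chd8+/+ and 21.1, 21.4 and 20.7 CPM in Chd8+/-, with no overlap, and a log2 fold change of 0.12 ± 0.051 (adjusted p = 0.255). Cdc20 was the sixth gene without overlap, at -0.09 (unadjusted p of 0.278). Role groups differed in direction. The spindle group had 5 of 7 members below 0 (median -0.065) and the central spindle group 4 of 5 (median -0.094). Below 0 were also 6 of 7 cyclins and 4 of 5 mitotic kinases and checkpoint genes. So were 2 of 2 partners of the anaphase-promoting complex and 2 of 2 proliferation markers. Above 0 were 4 of the 6 cyclin-dependent kinases and phosphatases (median 0.049), 2 of 3 passenger complex genes and 3 of 5 kinetochore genes.

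**Figure D4:**
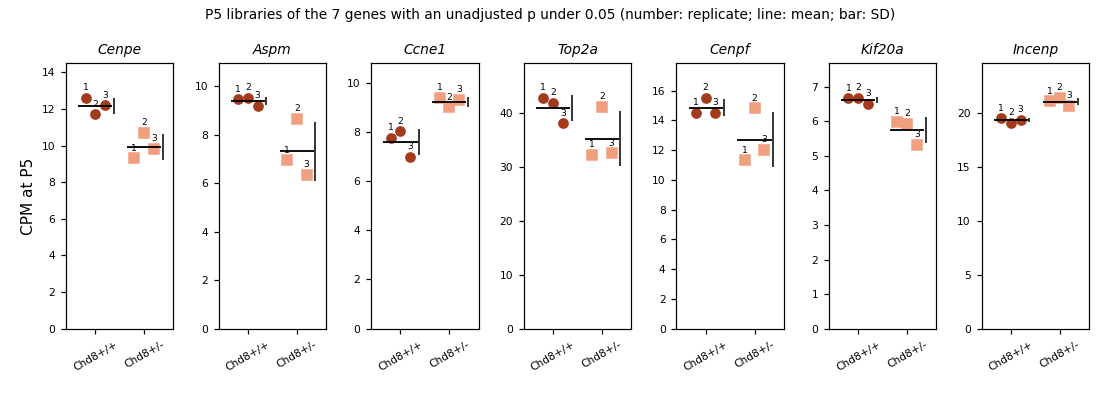
CPM in each of the 6 P5 libraries of the 7 genes with an unadjusted p under 0.05, from an axis start of 0, with replicate numbers, means and SDs. In Aspm, Top2a and Cenpf, Chd8+/- replicate 2 lies nearer to the Chd8+/+ libraries than replicates 1 and 3 do, and in Ccne1 and Incenp all Chd8+/- libraries lie above all Chd8+/+ libraries.

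The libraries were uneven within groups. At E12.5, Chd8+/- replicate 3 was the highest of the 6 libraries for 21 of the 42 members. At P5, Chd8+/- replicate 2 was the highest for 17 of the 42 members, replicate 1 was the lowest for 13 and replicate 3 for 16. Median coefficients of variation over the members were 2.74% and 3.76% in E12.5 Chd8+/+ and Chd8+/-, and 5.50% and 7.46% at P5. Markers of other cells were compared between the P5 groups as well, and none of the genes in these lists was called by edgeR. At an unadjusted p under 0.05 (17.8% of all genes), all 5 choroid plexus and 4 of 5 endothelial markers were lower. So were 3 of 8 ganglionic eminence and interneuron markers and 2 of 4 erythroid markers. Of 8 neuronal markers 3 were lower and 1 higher, and of 5 meningeal markers 1 was higher. No marker of oligodendrocyte precursors, astrocytes or microglia passed that limit. The summed level of 5 choroid plexus markers was between 341 and 436 CPM per kb in Chd8+/+ and between 249.7 and 302 in Chd8+/-, where the groups did not overlap, with all 5 below 0 (median -0.60). That of the ganglionic eminence and interneuron markers was between 64.6 and 66.1 against between 54.3 and 65.3, with all 8 below 0. That of the progenitor markers was between 378 and 466 against between 435 and 449. Fabp7 (0.06) weighs most in this sum per kb. It has the highest P5 level of these markers (455 CPM in Chd8+/+) and the shortest exon sequence (1250 bases). Of the 8 progenitor markers, 6 were below 0 (median -0.10), among them Eomes (-0.36) and Pax6 (-0.21). Hes5 was above 0 (0.225) and had the smallest p of the 8. At an unadjusted p under 0.05, 3 were lower and 1 higher. The part of these cells in the members' differences was not tested.

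Fold changes at P5 also ran with exon length. Over all genes tested, the P5 log2 fold change and log2 exon length had a Pearson r of -0.158, and over the 42 members r was -0.429 (Spearman's rho -0.349), as a description across genes that share the same 6 libraries. At E12.5 r was 0.199 over the members. Aspm, Cenpe, Cenpf and Top2a are among the members with the longest exon sequence (11590, 8620, 15433 and 9013 bases), as are Mki67 (10075 bases, -0.14), Ccnd2 (9409 bases, -0.04) and Cdk6 (13989 bases, 0.06), the last of which was above 0.

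With offsets that took out each library's trend with length, r over the members was -0.211. The log2 fold changes became -0.30 for Aspm, -0.24 for Cenpe, -0.15 for Cenpf, -0.17 for Top2a and 0.27 for Ccne1, and 6 members (14.3%) then had an unadjusted p under 0.05 against 15.3% of all genes. The smallest adjusted p was 0.184 (Cenpe). The part of length in the differences was not tested beyond these offsets.

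**Figure D5:**
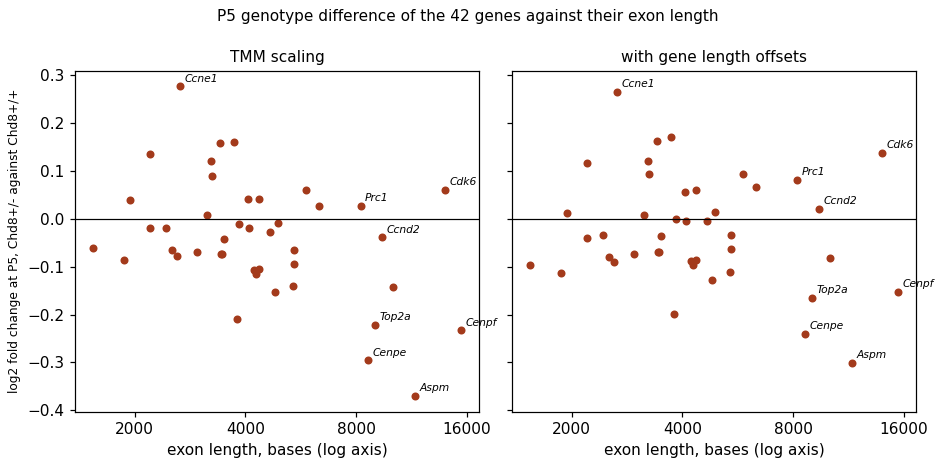
P5 log2 fold change, Chd8+/- against Chd8+/+, of the 42 genes against exon length in bases (log axis), with TMM scaling (left) and with gene length offsets (right). The longest genes include the lowest values on the left, and r over the 42 genes goes from -0.429 to -0.211 with the offsets.

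Related lists at P5 gave the same kind of result, with none called. Of 56 other mitosis genes, 9 were lower and 2 higher at an unadjusted p under 0.05, beside 17.8% of all genes (1824 lower and 1493 higher of 18666). With gene length offsets 4 were lower and 3 higher. The smallest p-values without offsets belonged to Ckap5, a microtubule polymerase (-0.20), Tacc3, its spindle partner (0.25), Cks1b, a Cdk-binding protein (-0.31), and Zwint (-0.12) as log2 fold changes. Among 16 inhibitors, 2 were lower and 3 higher, led by Cdkn1a (0.17), Cdkn1b (-0.14), Cdkn2d (0.16) and Pkmyt1 (0.25). Among 21 transcription regulators, Tfdp2 (-0.21) and E2f3 (-0.17) were below 0 at that limit. At E12.5 the same lists had 1, 1 and 0 genes at an unadjusted p under 0.05, and none was called.

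Whether the fall from E12.5 to P5 differed between the genotypes was tested as an interaction over the 12 libraries. No gene was called by edgeR (0.0% of 19676), 8 genes and no member by DESeq2, and 1972 genes had an unadjusted p under 0.05. They were 6.87% of all genes with a lower and 3.15% with a higher value, against 5 members (11.9%) and 2 members (4.76%). With gene length offsets 2 members lay on each side. The median of the members was -0.060, and that of all genes -0.019. Cenpe had the smallest p of the members, with log2 fold changes between stages of -4.07 in Chd8+/+ and -4.36 in Chd8+/-. Their difference was -0.29 ± 0.064, with an unadjusted p of 0.000442 and an adjusted p of 0.362 (edgeR). For Aspm the difference was -0.40 ± 0.10 (adjusted p = 0.362).

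In the same test Ccne1 had a difference of 0.30 ± 0.099 (adjusted p = 0.393) and Birc5 of 0.24 ± 0.082 (adjusted p = 0.405). Kif20a (-0.23), Cenpf (-0.29) and Top2a (-0.26) were the other members with an unadjusted p under 0.05. These values share their libraries with the comparisons within each stage and are not independent of them. In the other lists, 8 of 56 mitosis genes, 3 of 16 inhibitors and 3 of 21 transcription regulators had an unadjusted p under 0.05 (6, 1 and 3 of them lower), beside 1972 of all 19676 genes. With gene length offsets they were 5, 2 and 1, beside 1608 of all genes.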

How the data were processed

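RNA-seq libraries of mRNA-selected RNA, made with dUTP, were sequenced as read pairs on an Illumina HiSeq over 2 lanes. Per the methods and the submitters' processing notes, the authors trimmed reads with Trim Galore 0.4.1, aligned them to GRCm38 with TopHat2 2.1.0 and counted them per Ensembl gene with featureCounts 1.5.0. The deposited values are raw counts per gene and run, not normalized, filtered or pooled. Here the 2 runs of each library were summed, and symbols were found for 46005 genes. Depth is given as total counts, and 8.36% was the common coefficient of biological variation over 12 libraries.

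Genotypes were compared within a stage, and stages and the interaction in 1 model over the 12 libraries, with edgeR 4.0.16 (R 4.3.3; TMM, filterByExpr, quasi-likelihood test, Benjamini-Hochberg adjustment over all genes, threshold 0.05). Genotype log2 fold changes come from the fits within stages, CPM from factors over 12 libraries. Labels give separate samples without naming animals, so p-values measure the spread between samples. No 2 libraries agreed within sampling noise.

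The members and lists were chosen with earlier results of these data known. Values in every library are given for Mki67, Top2a, Cdk1, Ccnb1, the D cyclins with Cdk4 and Cdk6, up to 6 members per genotype comparison with the smallest unadjusted p under 0.05, and the 4 largest and 4 smallest falls between stages in Chd8+/+. In each related list up to 4 genes with the smallest p are named. Incenp is named at P5 beyond that number, after its values were seen. Alternatives were DESeq2 1.42.0, limma-voom (limma 3.58.1), other scalings and filters, length offsets (loess, span 0.5), the replicate number as a block, a threshold of 0.1, other sets of libraries, and each library left out. The fits were tested on simulated counts.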

Additional observations from a re-analysis of the deposited data

How the results depend on the processing

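All 42 members stayed called as lower at P5 in both genotypes under every alternative run, with medians between -4.16 and -4.01 on the log2 scale. With upper-quartile scaling the median in Chd8+/- was -4.06. The P5 share of the E12.5 summed level was 7.21% in Chd8+/+ and 7.09% in Chd8+/- as a share of all counts without scaling by length. At E12.5 no member was called under any alternative. At P5, DESeq2 called 1 member (Aspm). A filter of at least 1 count in total called 3 of the 42 members (Aspm, Cenpe and Top2a), and 995 of all 31265 genes it tested. With 1 library left out, between 0 and 2 members were called at P5 and between 0 and 1 in the interaction, with Aspm and Top2a called at P5, and Aspm in the interaction, without P5 Chd8+/- replicate 2, where 327 of 19044 genes were called at P5 and 2 in the interaction. The interaction median then ran from -0.0894 to 0.000847, the latter without E12.5 Chd8+/+ replicate 1. The cause of these moves was not tested. No called member turned direction under any alternative.

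Correlations of deviations between samples with the same replicate number were -0.227, -0.102 and -0.0913 at E12.5, where no sample correlated best with its own number. At P5 they were 0.227, 0.111 and 0.0434, and each sample correlated best with its own number. With 3 samples per group, these values cannot decide whether the numbers pair the samples. With the replicate block, 0 members were called at each stage (median -0.0405 at P5), and over all genes 0 were called at E12.5 (Chd8 at an adjusted p of 0.346) and 4 at P5. With 3 libraries per group and SEs of up to 0.16 at P5, small differences of members at a few CPM were not resolved.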
